A study of Mus musculus with 6 samples.

Results

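The genes described here are 35 genes of blood vessels, brain coverings and blood, read in ribosome-bound RNA from the midbrain of adult mice. They were chosen by symbol as known genes of 4 cell classes: 18 of endothelial cells, 8 of mural cells (pericytes and smooth muscle), 4 of meningeal fibroblasts and 5 of erythroid cells. Of these, 33 have a row among the 32531 gene rows of each count file. Hba-a1 and Hbb-bt have no row in the files used here. The mice were untreated controls of the Lhx5-EGFP/Rpl10a line DT154, in which a ribosomal protein fused to a green fluorescent protein is made in cells that use the regulatory region of Lhx5, a transcription factor gene of some neurons. The design uses a single transgenic line, all libraries carry the same transgene, and the labels name no untagged mouse as a control. The 2 groups are 3 IP libraries, made from polysomes pulled down with anti-EGFP antibodies (translating ribosome affinity purification, TRAP), and 3 Input libraries. Titles call the second group Input while a separate label calls it unbound, so it holds either all midbrain RNA or what the beads left behind. Nothing in the labels says that same-group libraries came from separate animals, and p-values therefore measure only the spread between these libraries.

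Endothelial cells line brain vessels and form the blood-brain barrier with tight junctions and dedicated transporters, while pericytes and smooth muscle wrap the vessel wall. Fibroblasts of the meninges cover the brain surface and follow large vessels inward, and red cells reach a tissue sample in the blood it retains. None of these cells is a neuron, and in TRAP of neurons their transcripts serve as a measure of RNA from untagged cells. Not every gene is exclusive to its class: Bsg is made widely, neurons included, Slc2a1 also by glia, and Ptgds also by oligodendrocytes.

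Each library held between 38058239 and 45841499 gene counts, so that 3 counts corresponded to 0.0688 to 0.0741 counts-per-million (CPM, scaled by the trimmed mean of M values, TMM). Lhx5 stood at 46.8, 56.0 and 49.1 CPM in IP replicates 1 to 3 and at 3.92, 3.81 and 2.20 CPM in Input, a log2 fold change of 3.93 (SE 0.23, edgeR adjusted p = 1.29e-05). Of 10 genes common to neurons, 8 rose in IP and 1, Map2, fell. Ambiguous reads, which fall on overlapping genes, made up 1.59% to 1.68% of file entries in IP and 8.03% to 10.9% in Input, and their part in the differences below was not tested.

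Most of the vascular, meningeal and blood genes were far lower in IP than in Input. Of the 32 that passed the low-count filter, 27 fell (edgeR quasi-likelihood test, adjusted p under 0.05), 1 rose and 4 did not pass the test. Across all 17197 tested genes, 27.9% fell and 26% rose. The fall was past 2-fold by a test against that fold for 21 of the 32, against 12.9% of all tested genes, and no member rose past 2-fold, against 2.25%. The median log2 fold change of the tested members was -2.74, and that of all tested genes was -0.01. Members such as Vwf, Emcn and Lum passed the filter through their Input counts alone and so had to differ, and the counts over tested members are a description, not support. A fall here is a lower share of the RNA in IP than in Input, and neither cell number nor RNA per cell can be read from it.

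**Figure D1:**
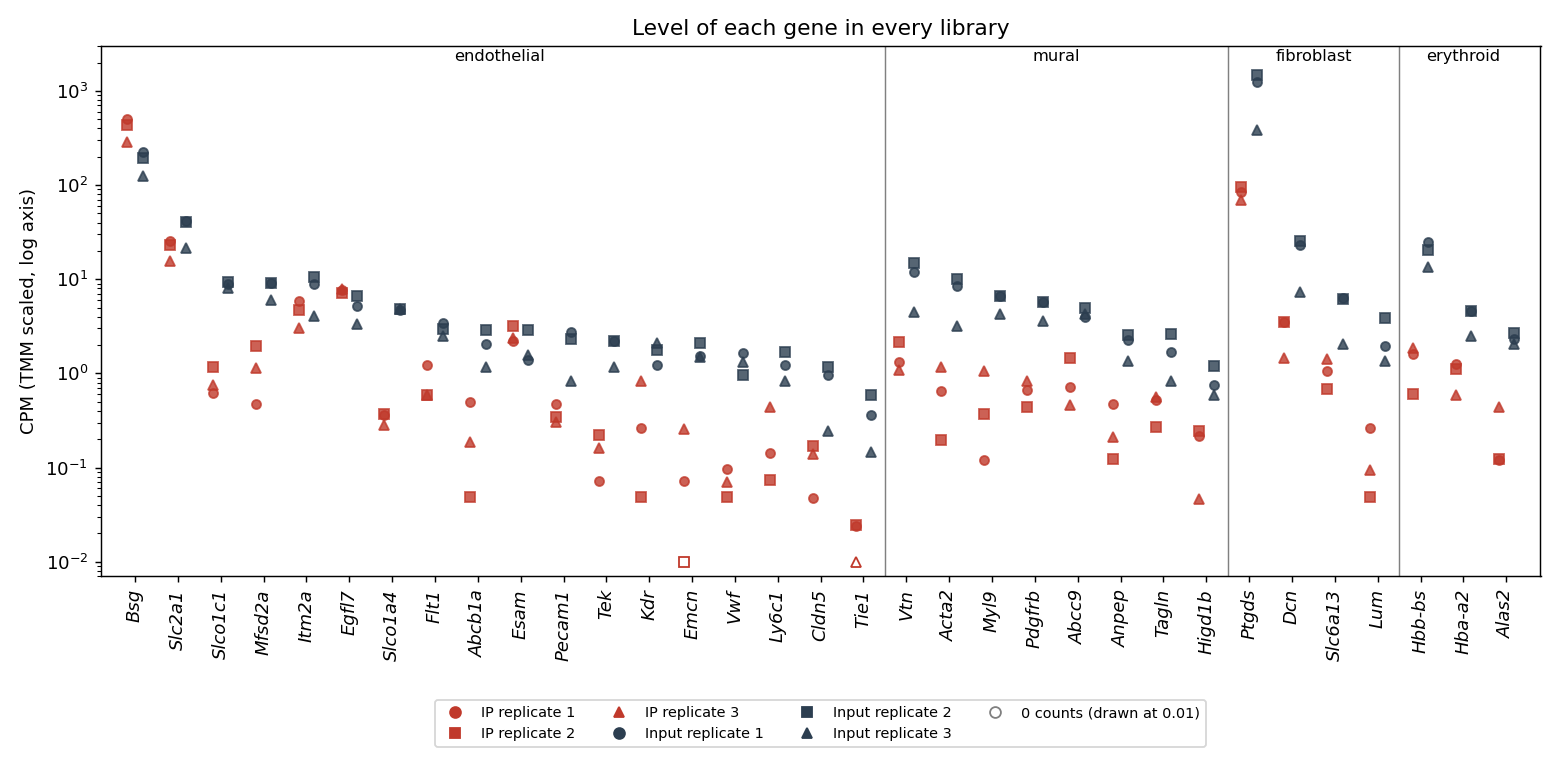
CPM (TMM scaled, log axis) of the 33 genes with a row in each of the 6 libraries, grouped by cell class; red marks IP, dark blue Input, and open symbols mark libraries with 0 counts. IP points lie under all Input points for most genes, while Bsg and Egfl7 have all IP points above Input.

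The 3 libraries of IP lay under the 3 of Input without overlap for 27 of the 32 tested members, against 32.8% of all tested genes, and above them for 2, Bsg and Egfl7, against 30.7%. By class, 12 of 17 endothelial genes fell with a median log2 fold change of -2.48, 8 of 8 mural genes with -2.84, 4 of 4 fibroblast genes with -3.19 and 3 of 3 erythroid genes with -3.34, which was -4.12 without IP replicate 3. All 5 exceptions to the fall were endothelial genes. Whether the classes differ from each other in the size of the fall was not tested.

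**Figure D2:**
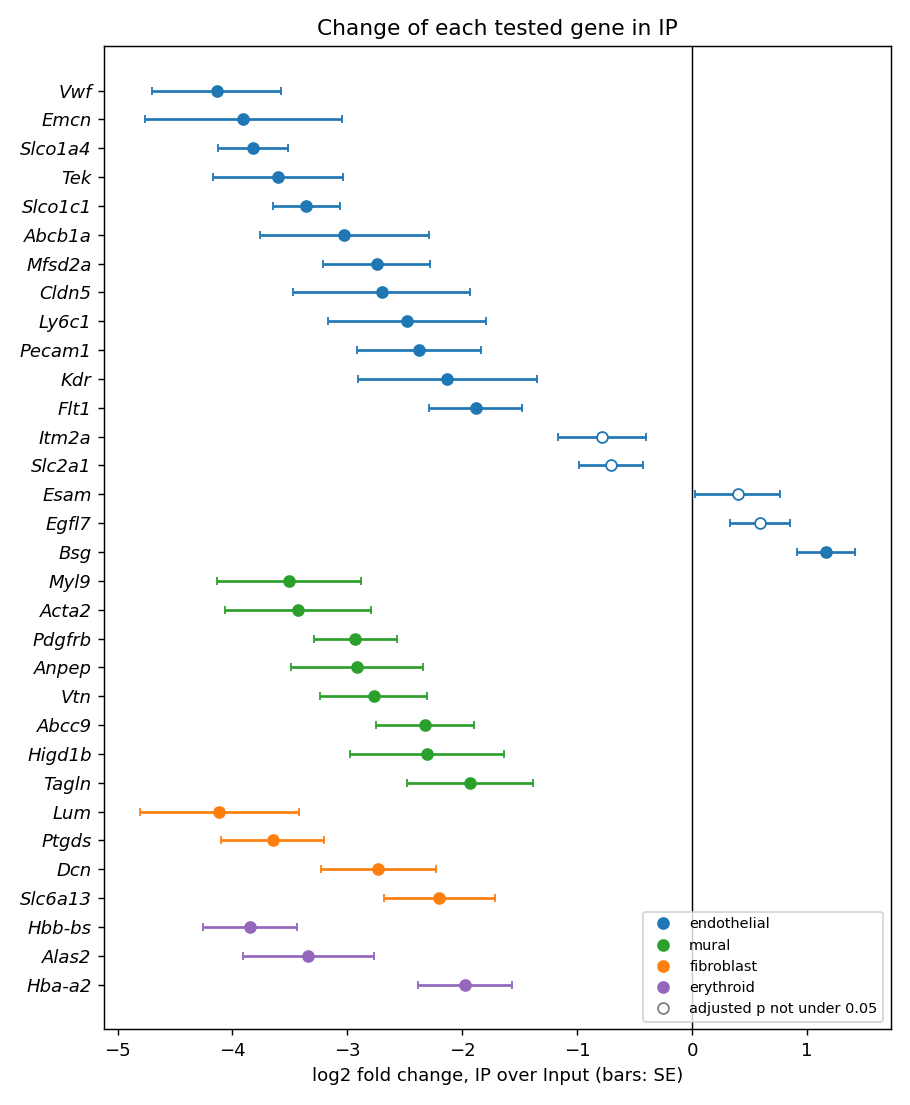
Log2 fold change of IP over Input for the 32 tested genes, with bars of 1 SE, coloured by class and sorted within it; open circles did not pass the adjusted p of 0.05. The mural, fibroblast and erythroid genes all lie left of -1.9, and the endothelial genes run from Vwf at -4.14 to Bsg at 1.17.

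Among the endothelial genes, 4 transporters of the blood-brain barrier fell. Slco1a4, an organic anion transporter (chr6:141805440-141856199), had 0.359, 0.366 and 0.280 CPM in IP replicates 1 to 3 and 4.66, 4.81 and 4.81 CPM in Input. Its level varied little within either group, and it fell 14.1-fold (log2 -3.82, SE 0.31, edgeR adjusted p = 4.90e-05). Slco1c1, which carries thyroid hormone into the brain (chr6:141524368-141570177), stood at 0.621, 1.17 and 0.746 CPM in IP against 8.85, 9.24 and 8.02 CPM. It fell by 3.36 on the log2 scale (SE 0.29, edgeR adjusted p = 6.62e-05). Mfsd2a, the lysolipid transporter that brings in docosahexaenoic acid, had 0.478, 1.98 and 1.14 CPM against 9.16, 9.06 and 5.95 CPM. IP replicate 2 was the highest of its group, and the fall of 2.75 became 3.35 without it. Abcb1a, the drug efflux pump P-glycoprotein, stood at 0.502, 0.0488 and 0.187 CPM in IP and at 2.04, 2.87 and 1.16 CPM in Input. The IP libraries of Abcb1a held 21, 2 and 8 counts, its log2 fold change of -3.02 moved to -4.05 without IP replicate 1, and 22.5% of its 50-base stretches also occur in other genes, chiefly its copy Abcb1b.

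Receptors for vessel growth factors fell too, with less even values. Tek, the angiopoietin receptor, had 0.0717, 0.220 and 0.163 CPM in IP against 2.24, 2.22 and 1.16 CPM in Input, a log2 fold change of -3.60 (SE 0.57, edgeR adjusted p = 0.00104). Flt1, a VEGF receptor (chr5:147561604-147726011), stood at 1.22, 0.586 and 0.583 CPM against 3.41, 2.96 and 2.47 CPM. Its groups did not overlap and it fell by 1.88 (SE 0.40, edgeR adjusted p = 0.00452). Kdr, the main signalling receptor for VEGF, had 0.263, 0.0488 and 0.840 CPM in IP against 1.23, 1.77 and 2.10 CPM. Kdr rested on nearly every library: the log2 fold change of -2.13 (SE 0.78, edgeR adjusted p = 0.0461) missed the threshold on leaving out any of the libraries other than IP replicate 3 (adjusted p of 0.0549 to 0.120). Without IP replicate 3 it passed at -3.40. Tie1, the orphan partner of Tek, was not tested, with counts of 1, 1 and 0 in IP and 15, 26 and 6 in Input.

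The start of Flt1 is shown as an example of the endothelial promoters, with the letters AGGAAG and TATAAA in capitals. AGGAAG is a form of the site bound by ETS factors, a family active in endothelium. It is the 250 bases before the RefSeq start on the minus strand, chr5:147726012-147726261 in GRCm38.p6.
Flt1: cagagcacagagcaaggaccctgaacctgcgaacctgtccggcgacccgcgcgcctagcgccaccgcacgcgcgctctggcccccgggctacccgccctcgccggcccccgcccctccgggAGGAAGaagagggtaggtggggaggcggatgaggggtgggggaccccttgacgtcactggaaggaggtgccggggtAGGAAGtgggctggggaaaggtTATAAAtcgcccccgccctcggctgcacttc
The AGGAAG matches begin 129 and 53 bases before the start, and TATAAA begins 31 bases before it. Windows from RefSeq were matched for 26 of the 35 genes by symbol. On either strand, AGGAAG lay in the windows of 9 of 14 endothelial genes, 0 of 5 mural genes, 0 of 2 fibroblast genes and 1 of 5 erythroid genes, and in 29.5% of all 32851 promoter windows. A gene counted if any of its windows matched, and Egfl7, Ly6c1 and Slc6a13 had several, while the 29.5% counts single windows. The endothelial genes with it include both ones that fell (Flt1, Slco1a4, Slco1c1) and ones that did not pass the test (Egfl7, Itm2a). These matches describe letters, not bound sites. Other forms of the ETS site were not searched for, so windows without AGGAAG may still hold one.

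Transcripts of Vwf, Emcn, Pecam1, Cldn5 and Ly6c1, which code for surface, junction or stored proteins of endothelial cells, were at low levels in IP. Those of other surface proteins, such as Bsg and Esam, did not fall by the test and are described below. Vwf, the clotting protein stored in endothelium, stood at 0.0956, 0.0488 and 0.0700 CPM in IP, which were 4, 2 and 3 counts, and at 1.64, 0.963 and 1.33 CPM in Input. Its log2 fold change of -4.14 (SE 0.56, edgeR adjusted p = 0.000532) rests on IP levels at the floor of 3 counts. Emcn, a sialomucin of veins and capillaries, had 0.0717, 0 and 0.257 CPM against 1.51, 2.09 and 1.48 CPM. One IP library thus had no read of it, and the fitted change of -3.90 (SE 0.86) moved to -5.43 without IP replicate 3. Pecam1, the platelet endothelial adhesion molecule, stood at 0.478, 0.342 and 0.303 CPM against 2.74, 2.29 and 0.839 CPM, a fall of 2.38 (SE 0.54, edgeR adjusted p = 0.00600). Cldn5, the main claudin of the barrier's tight junctions, had 0.0478, 0.171 and 0.140 CPM against 0.962, 1.17 and 0.247 CPM. Input replicate 3 of Cldn5 was 4.74-fold under the highest Input library, close to IP. The fall of 2.70 (SE 0.77, edgeR adjusted p = 0.0166) missed the threshold without IP replicate 1, Input replicate 1 or Input replicate 2 (adjusted p of 0.0542, 0.0572 and 0.0711). Ly6c1, a surface antigen of brain capillaries whose sequence is 32.8% shared with related Ly6 genes, fell by 2.48 (SE 0.69, edgeR adjusted p = 0.0149), from 1.23, 1.67 and 0.839 CPM to 0.143, 0.0733 and 0.443 CPM. Without Input replicate 2 its adjusted p was 0.0590, and without IP replicate 3 its log2 fold change was -3.47.

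A group of 5 endothelial genes did not fall by the test. Bsg (basigin, a chaperone of lactate transporters at the cell surface, chr10:79704491-79711969) was the one member that rose, with 499, 435 and 290 CPM in IP replicates 1 to 3 against 225, 195 and 126 CPM in Input. All 3 IP libraries were above all 3 Input libraries, and the rise was 2.24-fold (log2 1.17, SE 0.25, edgeR adjusted p = 0.00462). Between libraries of the same number, Bsg in IP was 222%, 223% and 230% of Input. Per kilobase of exon Bsg was at 225 CPM in IP, the highest of the 33 genes there, and at 100.2 CPM in Input, where only Ptgds was higher.

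Slc2a1, the glucose transporter of the barrier (chr4:119108711-119137983), had 25.4, 23.4 and 15.4 CPM in IP against 42.0, 40.9 and 21.4 CPM in Input. The groups overlapped, and the log2 fold change was -0.70 (SE 0.28, edgeR adjusted p = 0.0612). IP held 60.4%, 57.1% and 72.1% of the Input level within the numbered pairs. With the shared sequencing lane of each pair as a replicate block, the change was -0.67 with an adjusted p of 0.00306, and Slc2a1 also passed under upper-quartile scaling, library totals, a CPM filter, DESeq2 and without Input replicate 3. Itm2a, a membrane protein of brain endothelium, stood at 5.90, 4.76 and 3.01 CPM against 8.94, 10.5 and 4.05 CPM (log2 -0.78, SE 0.38, edgeR adjusted p = 0.113). It passed only with the replicate block (-0.73, adjusted p = 0.0272) and without Input replicate 3, alone or together with IP replicate 2.

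Egfl7, a secreted factor of growing vessels (chr2:26580014-26593120), had 7.72, 7.23 and 7.86 CPM in IP and 5.24, 6.60 and 3.31 CPM in Input. All IP libraries were above Input, and the log2 fold change of 0.59 (SE 0.26) had an edgeR adjusted p of 0.0879, which was 0.0409 with a change of 0.83 on leaving out Input replicate 2. Exons of other genes, among them Agpat2, cover 11.2% of its exon bases, and whether counting used strand is not given in the sources used here. Esam, an adhesion molecule of endothelium and platelets, stood at 2.22, 3.18 and 2.36 CPM against 1.39, 2.91 and 1.58 CPM, with a log2 fold change of 0.40 (SE 0.37, edgeR adjusted p = 0.395).

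These levels set the summed CPM of the endothelial genes. It was 544, 478 and 323 in IP and 322, 297 and 187 in Input, most of it Bsg. Without Bsg, set aside after its values were seen, the sum was 45.6, 43.6 and 33.8 in IP and 97.6, 103 and 60.9 in Input, so that Bsg alone set the direction of the class sum. Without Slc2a1 as well, it was 20.2, 20.2 and 18.4 in IP and 55.6, 61.7 and 39.5 in Input.

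**Figure D3:**
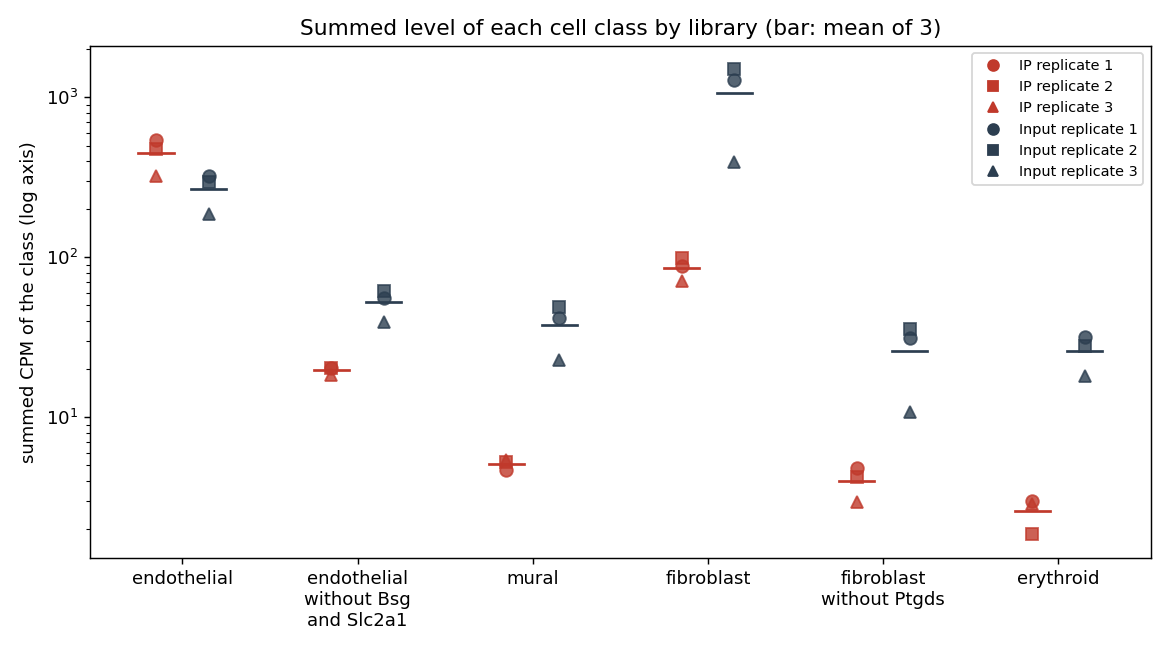
Summed CPM (log axis) of each cell class in every library, with a bar at the mean of 3, and with the classes shown again without their most abundant genes. The mural, fibroblast and erythroid sums in IP lie well under Input, and so does the endothelial sum without Bsg and Slc2a1, while the full endothelial sum, most of it Bsg, lies above Input.

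All 8 mural genes fell. Their sum was 4.71, 5.25 and 5.44 CPM in IP and 41.5, 48.6 and 22.7 CPM in Input, or 11.3%, 10.8% and 24.0% of Input within the numbered pairs. Pdgfrb, the PDGF receptor that pericytes need (chr18:61045150-61085061), stood at 0.669, 0.440 and 0.840 CPM in IP against 5.67, 5.66 and 3.60 CPM in Input. Its fall of 2.93 (SE 0.36, edgeR adjusted p = 0.000325) had the smallest adjusted p of the class. Vtn (vitronectin, made by brain pericytes) had 1.34, 2.17 and 1.10 CPM against 11.97, 14.97 and 4.52 CPM, a log2 fold change of -2.77. Input replicate 3 of Vtn was 3.31-fold below the highest Input library yet above every IP library.

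Of the contractile genes of smooth muscle, Myl9 and Acta2 had the largest falls of the 8 mural genes and Tagln the smallest. Acta2, smooth muscle actin (chr19:34241090-34255590), had 0.645, 0.195 and 1.17 CPM in IP and 8.53, 10.1 and 3.18 CPM in Input, a log2 fold change of -3.43 (SE 0.63, edgeR adjusted p = 0.00220). Myl9, a myosin light chain (chr2:156775420-156781658), stood at 0.120, 0.366 and 1.05 CPM against 6.61, 6.67 and 4.30 CPM and fell by 3.51 (SE 0.63, edgeR adjusted p = 0.00192). For both, IP replicate 3 was the highest of its group, and without it the changes were -4.09 and -4.57. Tagln (transgelin, an actin-binding protein) had 0.526, 0.269 and 0.560 CPM against 1.71, 2.64 and 0.839 CPM, with a fall of 1.93 (SE 0.55, edgeR adjusted p = 0.0168) that missed the threshold without Input replicate 2 (adjusted p = 0.0868). Exons of Pcsk7 and Gm48529, which lie on the other strand, cover 67.9% of the exon bases of Tagln. If counting ignored strand, reads of these genes cannot be told apart there. Whether counting used strand is not given in the sources used here, so the value of Tagln is uncertain.

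The start of Myl9 is shown because it holds the one strict CArG box found in the 26 windows. Serum response factor binds the CArG element in contractile genes. Strict means that only A or T lie between CC and GG. The 206 bases lie before the annotated gene on the plus strand, chr2:156775214-156775419 in GRCm38.p6, with the box in capitals.
Myl9: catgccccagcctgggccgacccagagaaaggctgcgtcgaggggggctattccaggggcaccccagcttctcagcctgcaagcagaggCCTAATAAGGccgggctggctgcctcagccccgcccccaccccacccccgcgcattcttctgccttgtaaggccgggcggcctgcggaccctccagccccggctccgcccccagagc
The box spans bases 161 to 152 before the RefSeq start. A strict CArG box lay in 1.47% of all promoter windows and in 1 of the 5 mural windows, on either strand. Looser forms were not searched for, so windows without a match, that of Acta2 among them, may still hold one. Tagln was not among the windows matched.

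The other pericyte genes fell to a like extent. Abcc9, a subunit of a potassium channel, had 0.717, 1.44 and 0.467 CPM in IP against 3.97, 4.91 and 4.30 CPM, a log2 fold change of -2.33 that was -2.91 without IP replicate 2. Anpep, an aminopeptidase, stood at 0.478, 0.122 and 0.210 CPM against 2.28, 2.55 and 1.36 CPM, with -2.92 overall and -3.60 without IP replicate 1. Higd1b, a pericyte transcript, had 0.215, 0.244 and 0.0467 CPM against 0.745, 1.19 and 0.592 CPM. Its fall of 2.31 (SE 0.67, edgeR adjusted p = 0.0183) did not pass without Input replicate 2 (adjusted p = 0.0818).

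The 4 fibroblast genes fell, led in level by Ptgds. Ptgds, the prostaglandin D synthase secreted into cerebrospinal fluid (chr2:25466709-25470046), had 84.0, 94.3 and 68.6 CPM in IP and 1246, 1464 and 384 CPM in Input. It fell 12.5-fold (log2 -3.65, SE 0.45, edgeR adjusted p = 0.000325). Per kilobase of exon it was the highest of the 33 genes in Input at 626 CPM, and at 49.9 CPM it was second to Bsg in IP. Input replicate 3 was 3.81-fold under the highest Input library, and IP was 6.74%, 6.44% and 17.9% of Input in the numbered pairs. Ptgds is also made by oligodendrocytes, and all 10 genes of an oligodendrocyte list fell in IP. The summed CPM of that list was 337 to 499 in IP and 4371 to 5201 in Input. The part of oligodendrocytes in the Ptgds value was not tested.

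The matrix proteoglycans of the meninges behaved alike. Dcn (decorin) stood at 3.49, 3.49 and 1.45 CPM in IP against 22.9, 25.6 and 7.41 CPM in Input, a log2 fold change of -2.73 (SE 0.50, edgeR adjusted p = 0.00214). Lum (lumican) had 0.263, 0.0488 and 0.0933 CPM against 1.97, 3.83 and 1.36 CPM, a fall of 4.11 (SE 0.69, edgeR adjusted p = 0.00141) that was 4.99 without IP replicate 1. Slc6a13, a GABA transporter of the meninges, stood at 1.05, 0.684 and 1.42 CPM against 6.32, 6.17 and 2.05 CPM and fell by 2.20 (SE 0.49, edgeR adjusted p = 0.00522). In pair 3, IP held 69.5% of the Input level, against 16.6% and 11.1% in pairs 1 and 2.

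Input replicate 3 was the lowest Input library in the summed CPM of all 4 classes. The fibroblast sum there was 395 CPM, against 1277 and 1500 CPM in the others, and without Ptgds it was 10.8 CPM against 31.2 and 35.6 CPM. The erythroid sum was nearer the others, at 18.02 CPM against 31.8 and 27.9 CPM. Ttr, the transthyretin made by choroid plexus, also varied between libraries. It stood at 338, 7.24 and 1266 CPM in Input and at 21.3, 0.391 and 2.75 CPM in IP. Its order over the Input libraries differs from that of the fibroblast sum, and what either does to the changes above was not tested. With Input replicate 3 and IP replicate 2 both left out, 29 of 33 tested members fell.

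The erythroid genes with a row fell in IP, the 2 globins among them. Hbb-bs, a beta globin of the adult (chr7:103826534-103828096), had 1.63, 0.611 and 1.84 CPM in IP and 24.8, 20.7 and 13.5 CPM in Input. It fell 14.4-fold (log2 -3.85, SE 0.41, edgeR adjusted p = 0.000164). Hba-a2, an alpha globin (chr11:32296489-32297298), stood at 1.27, 1.12 and 0.583 CPM against 4.64, 4.59 and 2.49 CPM. It fell 3.94-fold (log2 -1.98, SE 0.41, edgeR adjusted p = 0.00378), and its share of Input was 27.3%, 24.5% and 23.4% in the numbered pairs, against 6.55%, 2.95% and 13.7% for Hbb-bs. The difference between the 2 globins was not tested.

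The globin rows need their sequences to be read, since each has a near-identical copy. In the GRCm38 transcripts, the coding sequences of Hba-a1 and Hba-a2 are 429 bases long and differ at 1 base, C381T, and those of Hbb-bs and Hbb-bt are 444 bases long and differ at 1 base, C417T, each pair being 99.8% identical. Positions count from the first base of the start codon. The lines below give the coding sequence from base 331 to 429 of the alpha globins and from base 367 to 444 of the beta globins, with the differing base in capitals.
Hba-a1: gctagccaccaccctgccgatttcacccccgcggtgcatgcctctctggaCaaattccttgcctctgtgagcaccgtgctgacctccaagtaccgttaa
Hba-a2: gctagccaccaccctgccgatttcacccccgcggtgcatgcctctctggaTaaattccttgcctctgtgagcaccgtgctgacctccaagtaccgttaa
Hbb-bs: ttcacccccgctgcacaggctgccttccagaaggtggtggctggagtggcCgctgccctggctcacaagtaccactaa
Hbb-bt: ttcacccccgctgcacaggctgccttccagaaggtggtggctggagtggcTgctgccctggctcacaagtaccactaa
Of the 50-base stretches of Hba-a2 transcripts, 89.3% also occur in Hba-a1, and 53.2% of those of Hbb-bs occur in Hbb-bt. A read from a shared stretch has more than one alignment, and such alignments made up 43.8% to 44.5% of file entries in IP and 31.8% to 33.0% in Input over all genes. The globin levels are therefore uncertain, and a sum over both copies could not be made because Hba-a1 and Hbb-bt have no row here.

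Alas2, the first enzyme of heme synthesis in red cell precursors (chrX:150547375-150570638), has no such copy and stood at 0.120, 0.122 and 0.443 CPM in IP against 2.33, 2.66 and 2.05 CPM in Input. It fell by 3.34 (SE 0.57, edgeR adjusted p = 0.00155), and by 4.23 without IP replicate 3. Exons of other genes, among them Apex2, cover 15.5% of its exon bases. The starts of Alas2 and Hba-a2 are shown as examples from erythroid genes that fell, though by unlike amounts. Capitals mark AGATAA (a form of the site that GATA factors bind), the box CCAAT, the letters AGGAAG and the box TATAAA on either strand. The lines cover the plus-strand bases before each annotated gene, chrX:150547167-150547374 and chr11:32296242-32296488 in GRCm38.p6.
Alas2: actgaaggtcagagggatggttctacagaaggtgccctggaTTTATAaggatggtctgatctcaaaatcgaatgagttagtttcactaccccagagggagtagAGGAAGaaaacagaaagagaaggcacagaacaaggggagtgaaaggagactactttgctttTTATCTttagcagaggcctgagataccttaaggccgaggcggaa
Hba-a2: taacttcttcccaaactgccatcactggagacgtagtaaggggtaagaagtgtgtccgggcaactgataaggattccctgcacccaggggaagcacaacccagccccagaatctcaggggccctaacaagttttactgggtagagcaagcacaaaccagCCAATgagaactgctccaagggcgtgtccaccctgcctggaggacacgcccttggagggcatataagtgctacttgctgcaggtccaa
In Alas2 the AGATAA match reads on the opposite strand and spans bases 86 to 81 before the RefSeq start. CCAAT lay in 4 of the 5 erythroid windows and in 33.8% of all promoter windows. AGATAA lay in 2 of 5, Alas2 and Hbb-bs, and in 9.99% of all windows, and TATAAA in 2 of 5 and in 12.4%. Other forms of the GATA site were not searched for, so windows without AGATAA, that of Hba-a2 among them, may still hold one.

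**Figure D4:**
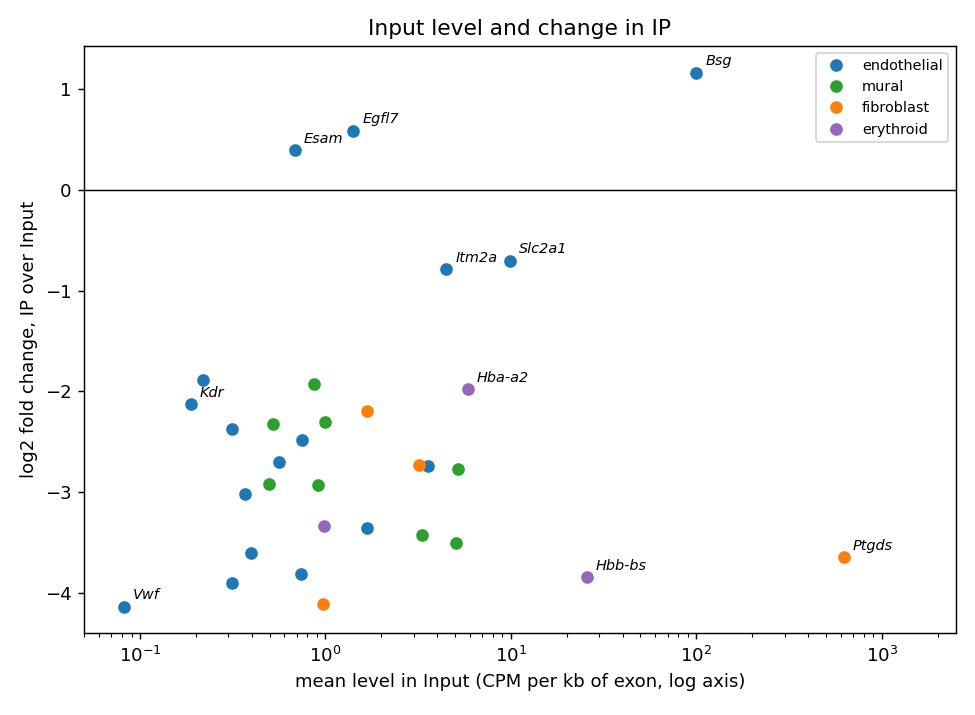
Mean Input level (CPM per kilobase of exon, log axis) against the log2 fold change of IP over Input (linear axis) for the 32 tested genes, coloured by class, with 10 genes labelled. Ptgds at 626 and Bsg at 100.2 CPM per kilobase have the highest Input levels and lie at -3.65 and 1.17.

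The plot of Input level against change shows genes of like level with unlike changes. Ptgds and Bsg, the most abundant per kilobase in Input, moved in opposite directions. Of the 5 endothelial genes that did not fall, Slc2a1 and Itm2a were at 9.92 and 4.49 CPM per kilobase in Input, above all endothelial genes that fell. Egfl7 and Esam had 1.41 and 0.684 CPM per kilobase, in the range of genes that fell, such as Slco1c1 at 1.68 and Slco1a4 at 0.743.

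Other genes of the same classes moved in the same direction in part. Among 28 tested further endothelial genes, 14 fell and 2 rose, with a median log2 fold change of -1.52; without Input replicate 2, 9 fell. The most abundant of them were Tjp1, a tight junction scaffold also used by other cells, at 39.7, 41.1 and 49.0 CPM in IP and 105, 104 and 100.4 CPM in Input (log2 -1.25), and the carriers Tfrc and Slc7a1, which did not pass the test at -0.26 and 0.60. The 2 that rose were Slc7a5, the large neutral amino acid transporter, at 0.88 with overlapping groups, and Rasip1, a regulator of vessel lumens, at 0.77. The number that rose ran from 0 to 4 over the alternatives, with 4 (and 13 lower) under the replicate block, 3 without IP replicate 3, 1 under upper-quartile scaling, library totals, either other filter or without any 1 of Input replicates 1 and 3 and IP replicates 1 and 2, and 0 without IP replicate 2 and Input replicate 3 or at a threshold of 0.01. Exons of other genes cover 42.9% of the exon bases of Rasip1, and its value is uncertain.

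Of 20 further mural genes, 16 fell and 1 rose, with a median of -2.07; without Input replicate 3, 2 rose. Tpm2, a tropomyosin, was the one that rose, at 51.0, 34.0 and 54.1 CPM in IP against 27.2, 19.5 and 12.9 CPM (log2 1.22, SE 0.28, edgeR adjusted p = 0.00591). Cald1, the actin-binding caldesmon, fell by 1.45, and Gucy1a3, a subunit of the nitric oxide receptor, was at 0.27 and did not pass. Of 20 further fibroblast genes, 18 fell and 0 rose, with a median of -2.83, which was -3.46 without IP replicate 2 and Input replicate 3. Igf2, a growth factor of the meninges and choroid plexus, stood at 8.91, 10.2 and 8.58 CPM in IP against 149, 194 and 136 CPM in Input, a log2 fold change of -4.11 (SE 0.17, edgeR adjusted p = 4.14e-06). Exons of Gm49394 and Igf2os cover 64.5% of its exon bases, so its value is uncertain as that of Tagln is. Aldh1a2, which makes retinoic acid in the meninges, fell by 3.27, and Fmod, another small proteoglycan, by 2.89.

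Further erythroid genes were mostly too low to test: of 13 with a row, 4 were tested and 1 fell. Rhag, Hbb-bh1, Hba-x and Gata1 had 0 counts in all IP libraries. Slc25a37, the mitochondrial iron importer, fell by 1.02, while Bpgm and Fech, which many cells use, were at 0.17 and 0.03 and did not pass. Of 16 genes of heme synthesis and iron handling, 5 fell and 4 rose, shares near the 27.9% and 26% of all tested genes, with a median of -0.12. Fth1, the ferritin heavy chain, fell by 1.52 and Ireb2, an iron sensor, by 0.60, while the heme enzymes Alad and Urod rose by 0.99 and 0.77.

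Of 15 tested genes for ligands that act on vessels, 7 fell, 1 rose and the others did not pass the test, with a median of -1.04. Across all tested genes, 27.9% fell and 26% rose. Vegfa, the ligand of Flt1 and Kdr, had 39.0, 41.0 and 33.2 CPM in IP against 56.8, 54.9 and 46.6 CPM, a log2 fold change of -0.48 (SE 0.13, edgeR adjusted p = 0.0141). Vegfb, a ligand of Flt1 alone, was higher in IP, at 110, 95.5 and 144 CPM against 61.6, 55.4 and 45.4 CPM (log2 1.11, SE 0.18, edgeR adjusted p = 0.00115). Apln (apelin), made by endothelial tip cells and some neurons, fell by 3.46.

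Other non-neuronal cells gave changes of like size. In IP, 9 of 10 microglial genes, 6 of 7 tested genes of perivascular macrophages and leukocytes and 9 of 10 astrocyte genes fell, with medians of -3.57, -3.40 and -3.11. Without IP replicate 3, 9 of 10 tested macrophage and leukocyte genes fell, with a median of -4.63. In the full set, the T cell gene Cd3e had 0 counts in all IP libraries. The summed CPM was 14.9 to 27.3 in IP against 76.1 to 134 in Input for microglia, 1.05 to 2.36 against 8.42 to 13.5 for macrophages and leukocytes, and 774 to 807 against 1655 to 2250 for astrocytes. Aldoc among astrocyte genes did not pass, at 0.19, as Slc2a1 and Itm2a did not among endothelial genes. No test compared the vascular, meningeal and blood genes with these lists.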

How the data were processed

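RNA of 3 IP and 3 Input libraries of Lhx5-TRAP midbrain was sequenced, with groups and numbers read from the titles. The authors deposited unnormalized gene counts, with a file for each library. Per the submitters' processing notes, STAR 2.0.0e and HTSeq were used with mm10; annotation, strandedness and the mode of counting: not given in the sources used here. Summary lines and a row for unknown genes (1 count in 1 library) were left out of totals and tests. Genes were filtered with filterByExpr (minimum count 10, minimum total count 15), which removed 15334 and kept 17197, given TMM factors, and compared in edgeR 4.0.16 under R 4.3.3 (quasi-likelihood, robust, group only, two-sided, Benjamini-Hochberg over all tested genes, threshold 0.05). SEs were obtained as the log2 fold change over the root of F, and changes past 2-fold were tested with glmTreat. limma 3.58.1 and DESeq2 1.42.0 served as alternatives, and the fit was tested on simulated data. Floors of 3 counts cover counting error only.

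Positions and exon overlaps come from the GRCm38 annotation given with the reference, and promoter windows (250 bases before the start) from RefSeq, GRCm38.p6. Motifs were searched on both strands; the printed windows leave out bases inside the annotated gene. The exon overlaps and shared 50-base stretches are those of the reference, not of the authors' annotation.

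The members and lists were chosen with earlier results of these data known. All members, Lhx5 and Rpl10a may be named; of each other list, the 3 genes of highest mean CPM and up to 2 called in its less common direction. Rpl10a, the tagged protein's gene, was at 7.03 ± 0.0220 CPM in IP and 7.80 ± 1.53 CPM in Input (SD, n = 3 each). The genes listed at 0 were named after their values were seen. Some genes the rule names are not reported here. The 5 other cell type lists (microglia, perivascular macrophages and leukocytes, astrocytes, oligodendrocytes, choroid plexus and ependyma) and a neuronal list are marker lists; of 9 tested choroid plexus and ependymal genes, 5 fell (8 of 10 without Input replicate 2, and likewise without IP replicate 1).

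Same-numbered libraries share a lane in the labels. Their deviations from group averages had correlations of 0.155, 0.0744 and 0.0506, so the pairing comes from the lane and only weakly from the values. Replicates correlated at 0.971 to 0.985 in log2 CPM, and no 2 agreed within counting noise.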

Additional observations from a re-analysis of the deposited data

How the results depend on the processing

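The counts of members that fell were within 1.5 times of the first value under every alternative run, in all 4 classes: RLE, upper-quartile and total scaling, no filter, a CPM filter, the replicate block, a threshold of 0.01, DESeq2, limma-voom and leaving out libraries. No member reversed. Leaving out each library gave 22 to 29 members lower, 9 to 14 endothelial, 6 to 8 mural, 4 fibroblast and 3 erythroid. Members higher numbered 1 to 2, with 2 (both endothelial, Bsg and Egfl7) without Input replicate 2. Members lower past 2-fold numbered 13 to 23, with 13 without Input replicate 2, and 10 at a threshold of 0.01 against 21. The log2 ratio of the endothelial sums, 0.74, was 0.59 under upper-quartile scaling, 0.61 with library totals, 0.49 without IP replicate 2 and Input replicate 3, and 0.53 to 0.93 on leaving out each library; the cause was not tested. The replicate block called Slc2a1 (adjusted p = 0.00306) and Itm2a (0.0272) lower and changed no other member's call, with 29 of 32 lower. Upper-quartile scaling and library totals moved the median of all tested genes to -0.17 and -0.15. The planned sum of globin copies was not run, because Hba-a1 and Hbb-bt have no row here. Leaving out a group's library leaves 2 against 3.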
